A study of Mus musculus with 6 samples.

Results

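Adam10 encodes a membrane-bound metalloprotease, and the TspanC8 genes Tspan5, Tspan10, Tspan14, Tspan15, Tspan17 and Tspan33 encode the tetraspanins that bind it. These 7 genes, of 20972 with a symbol on the array, were taken by matching the RefSeq accession of every probe that was not a control to the gene symbol, and 9 probes measured them. All 7 genes had at least 1 probe. RNA came from tibial cartilage of C57BL/6 mice and was read on 6 single-channel Agilent mouse expression arrays. The groups were 3 mice labelled ADAM10 flox/flox-Col2a1-Cre, called mutants here, and 3 mice labelled control. In mutants the Cre recombinase was driven by the Col2a1 promoter, which is active in cells of the chondrocyte lineage. In which cells of these mice the alleles were recombined was not measured. The labels do not give the age or sex of the mice, the exon that is floxed, or whether controls carry floxed alleles or Cre. Signal of the female-specific Xist lay above that of the Y-linked Ddx3y on mutant 3 and control 1 and not on the other arrays. By that reading both groups hold mice of both sexes.

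ADAM10 cuts the extracellular parts off many surface proteins. It releases growth factors and adhesion molecules, and it makes the first cut in Notch receptors once they have met their ligand. The TspanC8 proteins, named for the cysteines in their large extracellular loop, carry ADAM10 out of the endoplasmic reticulum, and different members lead it to different substrates.

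The number of arrays limits the precision of every value. The share of spots well above background ran from 62.4% to 65.4%, 0 spots were saturated, and all 6 arrays lay on 1 slide. Levels are given as log2 signal relative to the 75th percentile of the array, so that 0 marks a spot as bright as that percentile, and they describe 1 probe each and do not rank genes against each other. In the limma fit over all 25494 tested features, 0 passed an adjusted p of 0.05 (0% of features), 877 had an unadjusted p below 0.05 (3.44%), and with array weights limma called 4. Each marker list was summarised per array by centring every tested gene on its 6-array mean and averaging the centred log2 signals, which gives the list score. All 8 chondrocyte markers were tested, and their score was -0.04, 0.39 and 0.01 on mutants 1 to 3, against -0.33, -0.07 and 0.05 on controls 1 to 3, highest on mutant 2 and lowest on control 1. The differences, mutant minus control, had a median of 0.29, against 0.0431 over all features. Above 0 were 7 of the 8, where 40.0% of all features were below 0. The highest, named after its value was seen, was Acan, the large cartilage proteoglycan, at 0.36 (SE 0.20). Only Col2a1, the main cartilage collagen, lay below 0, at -0.07 (SE 0.12). None of the 8 had an unadjusted p below 0.05. Markers of macrophages, osteoclasts, osteoblasts, blood cells, endothelium and skeletal muscle were also measured, with 5 to 8 tested genes in each list. In such bulk RNA, fewer cells of a type and less RNA per cell cannot be told apart.

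Adam10, the targeted gene, was lower in each mutant than in each control. Its probe read 702, 184 and 633 intensity units on mutants 1 to 3, against 1811, 1665 and 1183 on controls 1 to 3, and it was well above background on all 6 arrays. On the normalised scale the log2 signal was 0.15, -1.70 and 0.31 in mutants, against 1.61, 1.58 and 1.21 in controls. The groups did not overlap, and mutant 2 lay far below the other mutants. Set against the linear mean of the controls, mutants 1 and 3 kept 39.9% and 44.5% of the signal and mutant 2 kept 11.0%, whereas single controls ran from 83.0% to 110%. Over the whole array set, 3.75% of tested features had each mutant below each control, and groups without overlap in either direction made up 8.95%.

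The mean difference for Adam10 was -1.88 (SE 0.53, 95% interval -3.16 to -0.60), or 3.68-fold lower in mutants. The interval spans 0.112 to 0.658 times the control level. The limma fit gave an unadjusted p of 0.0108, rank 139 of 25494, and an adjusted p of 0.987. A two-sided exact permutation test gave 0.1, the lowest p possible with 3 mice a group. In size the difference exceeded that of 99.9% of tested features, and it ranked 31 when features were ordered from the lowest difference. Without mutant 2 the difference was -1.24 (SE 0.17). Only 1 probe measures Adam10, and since the labels do not name the floxed exon it may lie outside the deleted part. If so, it does not check the genotype.

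**Figure D1:**
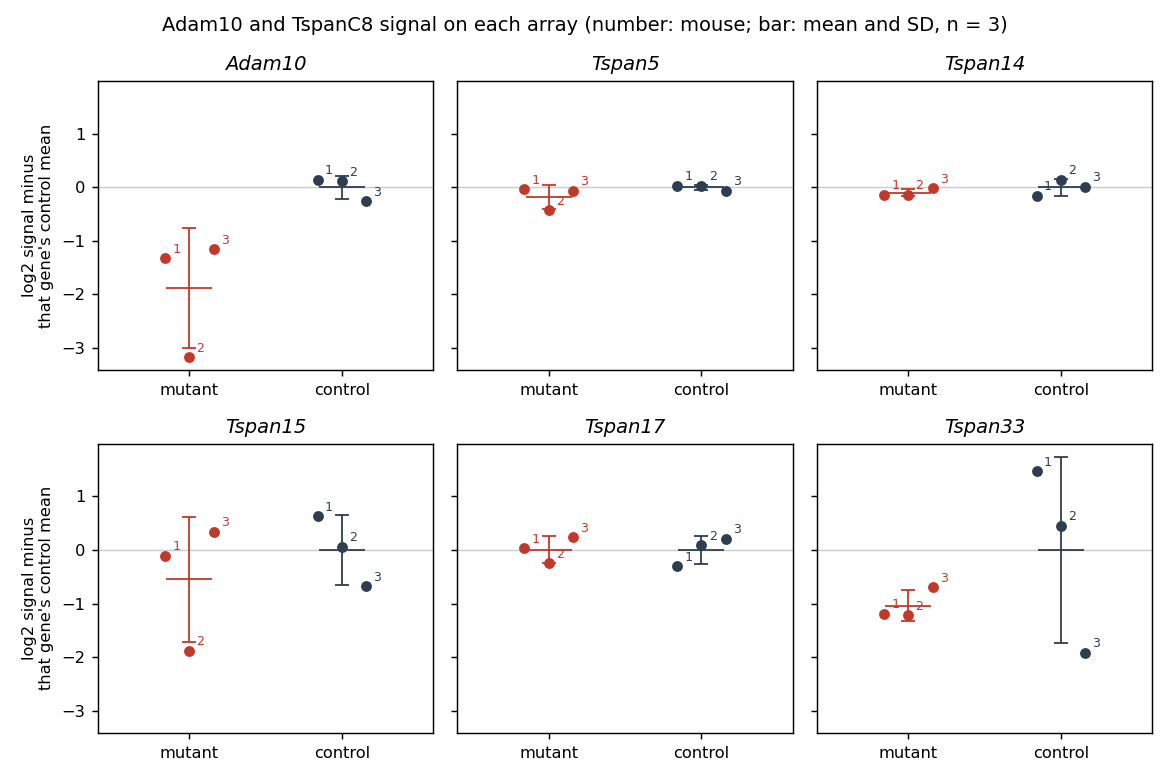
Log2 signal of each tested member on each array, minus that gene's control mean (y axis), for mutant arrays (red, left) and control arrays (dark, right); numbers give the mouse, and bars the mean and SD of 3 mice. Adam10 separates the groups, with mutant 2 lowest, while Tspan33 spreads most among controls and Tspan5, Tspan14 and Tspan17 stay in narrow bands.

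The SD of Adam10 was 1.12 in mutants and 0.22 in controls, and the mutants spanned a 4.03-fold range, against 1.32-fold for the controls.

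Marker scores of macrophages, osteoclasts, endothelium and osteoblasts were, like Adam10, lowest on mutant 2. The skeletal muscle score was lowest there too, at -2.28. On the first principal component mutant 2 lay at 71 and the other arrays from -55.3 to 15.2, so this array stood apart more broadly. The macrophage score, from 6 tested genes of 8 listed, was -0.09, -1.63 and -0.01 on mutants 1 to 3, against 0.53, 0.86 and 0.34 on controls 1 to 3. For the osteoclast list, all 8 of whose genes were tested, it was -0.05, -2.08 and 0.09 on mutants, against 0.38, 0.91 and 0.75 on controls. The endothelial score, from 8 tested genes, was 0.10, -1.15 and 0.10 on mutants, against 0.39, 0.45 and 0.11 on controls. These 3 scores did not overlap between the groups, the endothelial one by a narrow margin. The osteoblast score, from 5 tested genes of 6, was -0.20, -1.12 and 0.20 on mutants, against -0.05, 0.65 and 0.52 on controls, and its groups overlapped. Of the osteoblast genes, Ibsp, Dmp1 and Phex were lowest on mutant 2. Col1a1 was lowest on mutant 1 (8.15, against 8.22 on mutant 2), and Sp7 on control 1 (0.03, against 0.52 on mutant 2). Lower at an unadjusted p below 0.05 were 2 of 6 macrophage, 3 of 8 osteoclast, 0 of 8 endothelial and 2 of 5 osteoblast genes, where 1.89% of all features were, and 0 passed the adjusted p. The marker lists were drawn up with earlier results of these data known, so these counts are no independent test. The macrophage genes Cd68 and Vsig4 did not enter the test. With the macrophage score as a covariate the Adam10 difference was -0.52 (SE 0.21, unadjusted p 0.0525), and with the osteoclast score it was -0.70 (SE 0.29, unadjusted p 0.0559). Both covariates were added after the data were seen, and each differs between the groups by itself.

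Over the 6 arrays the 3 genes most like Adam10 are known from blood cells. Likeness was the root mean square difference after each gene was centred on its own mean, among 13897 genes with approved-style symbols detected well above background throughout. The closest was Vav1, a signalling protein of blood cells, at 0.255 log2 units. It read 0.00, -2.00 and 0.34 on mutants, against 0.94, 1.11 and 0.57 on controls. Next came Btk, a kinase of B lymphocytes and myeloid cells, at 0.262, and Sirpb1b, a myeloid receptor with close paralogues that its probe may not tell apart, at 0.264. Their own differences were -1.43 for Vav1, -1.42 for Btk and -1.63 for Sirpb1b, each lowest on mutant 2. Likeness over 6 arrays is a description of these libraries.

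**Figure D2:**
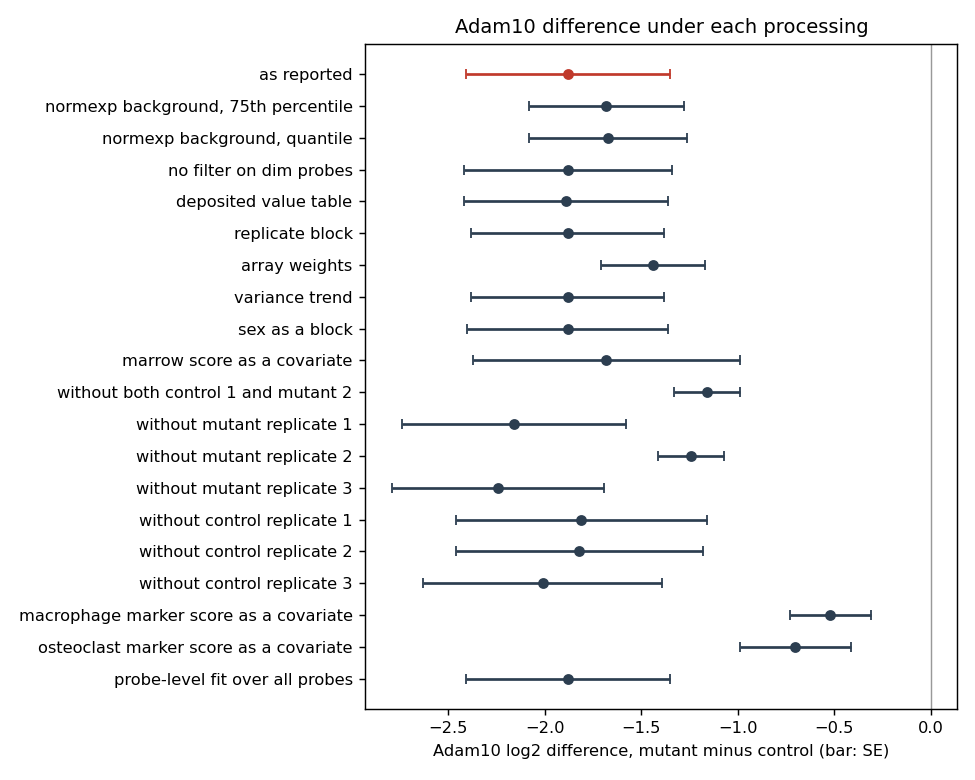
Adam10 log2 difference, mutant minus control (x axis; bar, SE), as reported (red) and under each alternative processing (dark). All 20 values are below 0, from -2.24 without mutant 3 to -0.52 with the macrophage score as a covariate.

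Of the 6 TspanC8 genes, 5 had a probe bright enough to test. Their differences ran from -1.03 to 0.01 with a median of -0.18, against 0.0431 over all features. Below 0 were 4 of the 5, where 40.0% of all features were below 0. An unadjusted p below 0.05 was reached by 0 of 5, against 3.44% of all features, and the smallest was 0.247. The arrays of mutants and controls overlapped for all 5, where 8.95% of all features had groups without overlap. At such shares, counts of 0 among 5 genes say nothing particular about these genes. With so few mice the intervals differ widely between the genes, and a p above the threshold does not show that a gene had the same level in both groups.

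**Figure D3:**
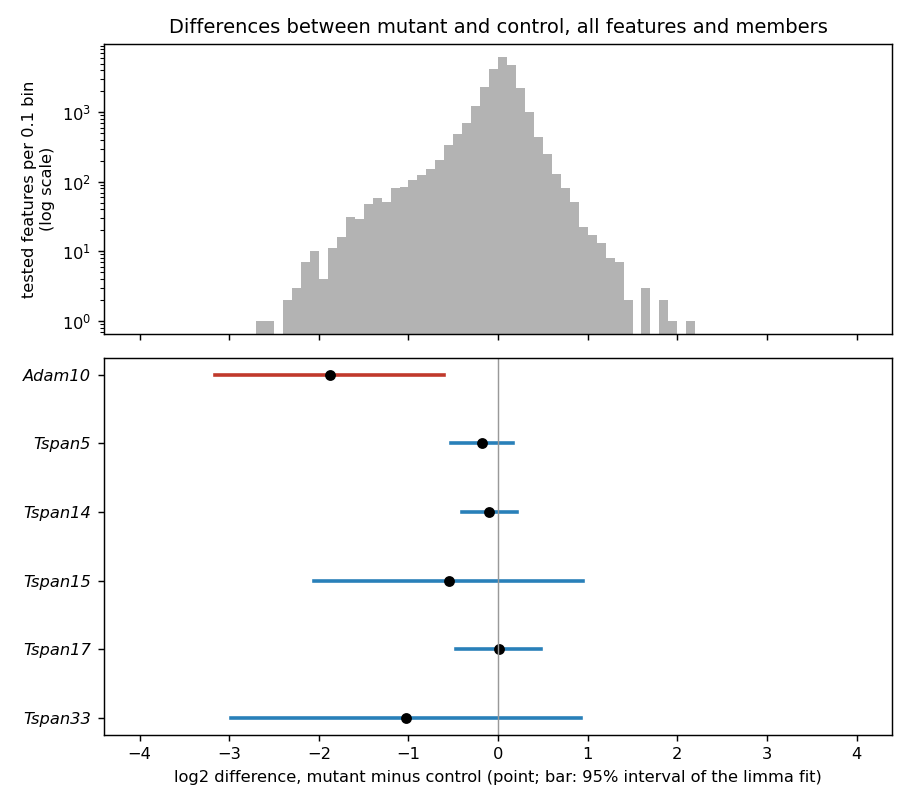
Top, number of tested features in each 0.1-wide bin of log2 difference, mutant minus control (log-scaled y axis); bottom, the difference (point) and 95% interval (bar) of each tested member. Adam10 alone has an interval below 0, at -3.16 to -0.60, and those of Tspan15 and Tspan33 are the widest of the tetraspanins.

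Tspan5 and Tspan14 are known for promoting Notch cleavage by ADAM10, and both varied little. The brighter Tspan5 probe read 0.56, 0.17 and 0.54 in mutants, against 0.63, 0.63 and 0.54 in controls. Mutant 2 was the lowest array and mutants 1 and 3 lay at or close to the control values. The difference was -0.18 (SE 0.14, 95% interval -0.53 to 0.17), which spans 0.695 to 1.13 times the control level. A second Tspan5 probe was dim, with 27.1, 38.6 and 34.3 intensity units in mutants, against 38.2, 36.7 and 34.7 in controls. Here mutant 1 was lowest, and the gap between the probes moved by 0.98 log2 units over the 6 arrays. Its difference was -0.21 (SE 0.19, unadjusted p 0.313) in a fit of every probe by itself. Spot error was taken from the 399 probes with at least 3 spots. Between spots of one probe on one array the median SD was 0.18 at 20 to 100 intensity units. The 95th percentile was 0.41, and both values cover spot error alone. An SD within 1 probe is not the same measure as the range of a gap between probes.

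Tspan14, also found with ADAM10 in endothelium and platelets, was the steadiest member. Its log2 signal was 2.08, 2.08 and 2.20 in mutants, against 2.06, 2.36 and 2.23 in controls, so all 3 mutants lay inside the control range. The SD over the 6 arrays was 0.12, larger than for 13.9% of features. The mean difference of -0.10 (SE 0.13, 95% interval -0.40 to 0.21) spans 0.758 to 1.16 times the control level. With array weights it was -0.21 (SE 0.09) at an unadjusted p of 0.0485, adjusted p 0.317.

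Tspan17 is the closest relative of Tspan5 and was measured by a pair of bright probes. The brighter read 3.95, 3.67 and 4.16 in mutants, against 3.62, 4.01 and 4.13 in controls. Mutant 2 and control 1 were low and the other 4 arrays lay together, a split that does not follow genotype. Its difference was 0.01 (SE 0.20, 95% interval -0.47 to 0.48), which spans 0.724 to 1.39 times the control level. The other probe read 1.33, 1.14 and 1.45 in mutants, against 0.97, 1.33 and 1.50 in controls, a difference of 0.04 (SE 0.18). The gap between these probes stayed between 2.53 and 2.71, so both gave the same order of high and low arrays apart from neighbouring values.

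Tspan15, known for directing ADAM10 to N-cadherin, varied widely in both groups. Its log2 signal was -1.74, -3.51 and -1.29 in mutants, against -1.00, -1.57 and -2.31 in controls. Mutant 2 was the lowest array, but mutants 1 and 3 lay inside the control range. The SD over the 6 arrays was 0.90, larger than for 96.4% of features. The mean difference was -0.55 (SE 0.62, 95% interval -2.05 to 0.95), and without mutant 2 it changed sign to 0.11 (SE 0.41).

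Skeletal muscle markers, all 6 of them tested, were also low on mutant 2. Their score was 1.26, -2.28 and 0.46 on mutants, against 2.07, -0.78 and -0.72 on controls. Tspan15 was likewise highest on control 1 and lowest on mutant 2, though mutant 3 and not mutant 1 was its second highest array. The endothelial score was lowest on the same array. Their part in the Tspan15 values was not tested. With the macrophage score, which itself differs between the groups, as a covariate the Tspan15 difference was 0.90 (SE 0.47). Closest in pattern to Tspan15 was Adamts15, a secreted protease of the ADAMTS family, at a root mean square difference of 0.087. It read -0.52, -2.32 and -0.12 on mutants, against 0.27, -0.53 and -1.00 on controls. The interferon-inducible genes Mndal, at 0.134, and Gbp2, at 0.148, followed.

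Tspan33, known from erythroid precursors and activated B lymphocytes, varied more among the control mice than any other tested member. Its probe read 536, 497 and 607 intensity units on mutants, against 3164, 1469 and 260 on controls. In log2 signal the mutants stood at -0.24, -0.27 and 0.25, against 2.42, 1.40 and -0.97 in controls. The controls spanned a 10.5-fold range that held all 3 mutants, whose own range was 1.43-fold. The SD was 0.29 in mutants and 1.74 in controls, and the SD over the 6 arrays, 1.25, was larger than for 98.6% of features. The mean difference was -1.03 (SE 0.81, 95% interval -2.98 to 0.92). It was -0.30 without control 1 and -1.99 (SE 0.34, unadjusted p 0.0014, adjusted p 0.464) without control 3.

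Marrow and blood marker scores were, like Tspan33, high on controls 1 and 2 and lower on control 3. The erythroid score, from 8 tested genes of 8, was -1.06, -0.56 and 0.05 on mutants, against 1.87, 0.89 and -1.19 on controls. The neutrophil score was -1.54, -0.61 and -0.22 on mutants, against 2.08, 0.98 and -0.69 on controls. For the B lymphocyte list, with 7 tested genes of 8 and Pax5 untested, it was -1.03, -0.85 and -0.18 on mutants, against 1.51, 1.51 and -0.97 on controls. Among the mutants each of the 3 scores was highest on mutant 3, as was Tspan33. Control 3 was the lowest array for Tspan33 and the erythroid score, but mutant 1 was for the neutrophil and B lymphocyte scores. Single genes departed from the scores. Mmp8 was highest on control 3 (-0.15, against -1.79 and -2.76 on controls 1 and 2), and Cd79a on mutant 2 (-3.14). The other tested genes of the 3 lists were highest on control 1 or 2. With a joint score of these 3 lists, the marrow score, as a covariate the Tspan33 difference was 0.44 (SE 0.30, unadjusted p 0.195), opposite in sign to the value without it. The marrow score was -1.22, -0.67 and -0.11 on mutants, against 1.83, 1.11 and -0.95 on controls, so it is tied in part to group. What accounts for the change of sign was not tested.

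The genes most like Tspan33 over the 6 arrays were Zdhhc22, a palmitoyltransferase gene, at a root mean square difference of 0.242, and the neutrophil granule genes Lcn2 at 0.264 and Pglyrp1 at 0.265. Zdhhc22 read -0.28, -0.35 and 0.62 on mutants, against 2.12, 1.02 and -0.96 on controls. Lcn2 read -1.29, -0.70 and -0.54 on mutants, against 2.18, 0.86 and -1.44 on controls.

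**Figure D4:**
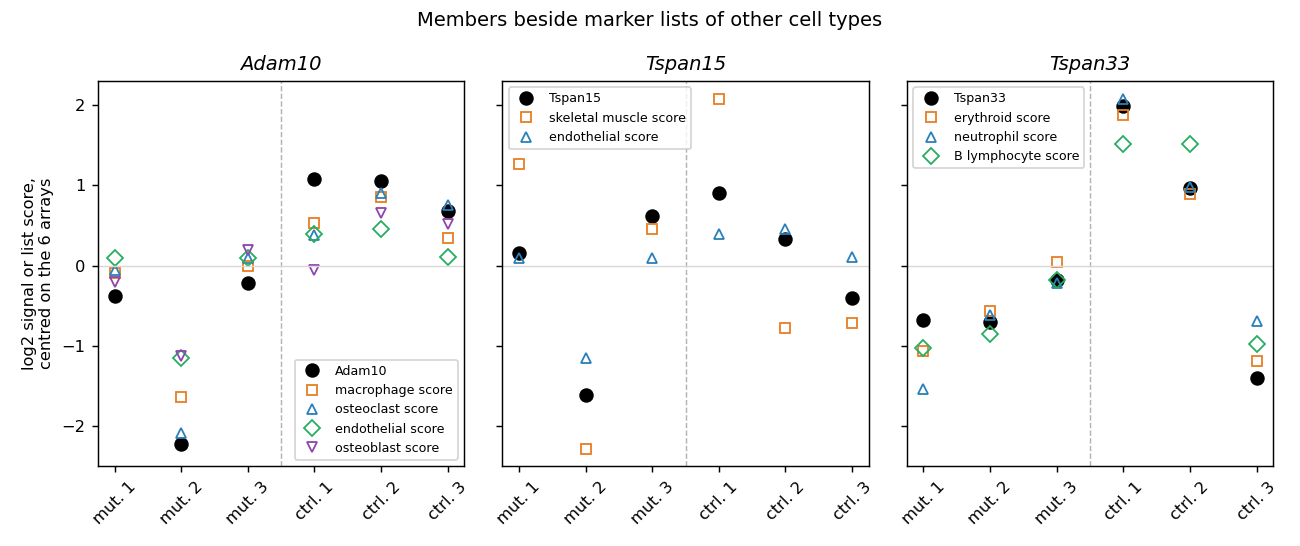
Log2 signal of Adam10, Tspan15 and Tspan33 (black) and marker list scores of other cell types (coloured, open), each centred on the 6 arrays (y axis), for mutant arrays left and control arrays right of the dashed line. Adam10 and the macrophage, osteoclast, endothelial and osteoblast scores are lowest on mutant 2, and Tspan33 and the erythroid, neutrophil and B lymphocyte scores are highest on controls 1 and 2.

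Tspan10, best known from pigmented cells of the eye, was not well above background on any of the 6 arrays. Its probe gave 7.4, 3.6 and 5.2 intensity units on mutants, against 3.4, 3.6 and 3.3 on controls, while the dimmest probe called well above background gave 14.6 to 16.3 units depending on the array. No fold is given, since both groups lay below what the array could measure.

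Other genes that act on ADAM10 were taken from lists by role, drawn up with earlier results of these data known. Of 43 such genes and other tetraspanins, 40 were tested. Lower at an unadjusted p below 0.05 was 1 gene and higher were 0, or 2.5% against 3.44% of all features, and their median difference was 0.07. By the adjusted p 0 passed.

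Over all features 40.0% were below 0 and the median was 0.0431, so most features lay above 0, and counts above 0 in these short lists say little. The proprotein convertases, which remove the prodomain of ADAM10, lay above 0 in 4 of 4 cases, and their median was 0.15. Pcsk6 differed by 0.35 (SE 0.22) and Pcsk7 by 0.12 (SE 0.13). Of the 4 inhibitors of ADAM10, 3 lay above 0. The tissue inhibitor Timp3 differed by 0.25 (SE 0.18), and Reck, a membrane-anchored inhibitor, by 0.25 (SE 0.22). Genes for membrane trafficking of the protease were split, with 3 above and 3 below 0 and a median of 0.04. Ap2s1, a subunit of the clathrin adaptor, differed by -0.19 (SE 0.14), and Dlg1, a scaffold that binds the ADAM10 tail, by 0.16 (SE 0.13).

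ADAM17 is the nearest relative of ADAM10 and travels with iRhom proteins in place of TspanC8 tetraspanins. Adam17 read -3.12, -2.84 and -3.20 on mutants, against -2.79, -2.89 and -2.76 on controls. Mutants 1 and 3 lay below the controls and mutant 2 among them. Its difference was -0.24 (SE 0.14, 95% interval -0.57 to 0.09). Frmd8, which stabilises iRhoms, differed by 0.20 (SE 0.15), and the list of 4 genes had a median of 0.08.

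Among other tetraspanins 22 of 25 were tested, 12 above and 10 below 0 with a median of 0.02. The groups did not overlap for 3 of the 22, Cd37, Tspan18 and Cd53, where 8.95% of all features had groups without overlap. Cd37, a tetraspanin of leukocytes, was the gene with an unadjusted p below 0.05. It read -0.96, -1.79 and -0.85 on mutants, against -0.12, -0.09 and -0.81 on controls, a narrow margin between mutant 3 and control 3. Its difference was -0.86 (SE 0.32, unadjusted p 0.0321, adjusted p 0.987), and like Adam10 it was lowest on mutant 2. Tspan18 followed with -0.30 (SE 0.14, unadjusted p 0.0688). Cd53, another leukocyte tetraspanin and named after its value was seen, was well above background on 5 of 6 arrays, all but mutant 2. It read -3.63, -6.44 and -3.62 on mutants, against -3.11, -2.80 and -3.53 on controls, so that mutant 2 lay far below the other 5 arrays. Its difference was -1.41 (SE 0.77, unadjusted p 0.111), the lowest of the list. The size of this difference depends on the mutant 2 value, which was too dim to be measured. Tspan32, known from blood cells and likewise chosen after its value was seen, differed by -0.07 (SE 0.16). The broadly expressed Cd63 and Cd81, also chosen after their values were seen, differed by -0.01 (SE 0.11) and 0.04 (SE 0.14).

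**Figure D5:**
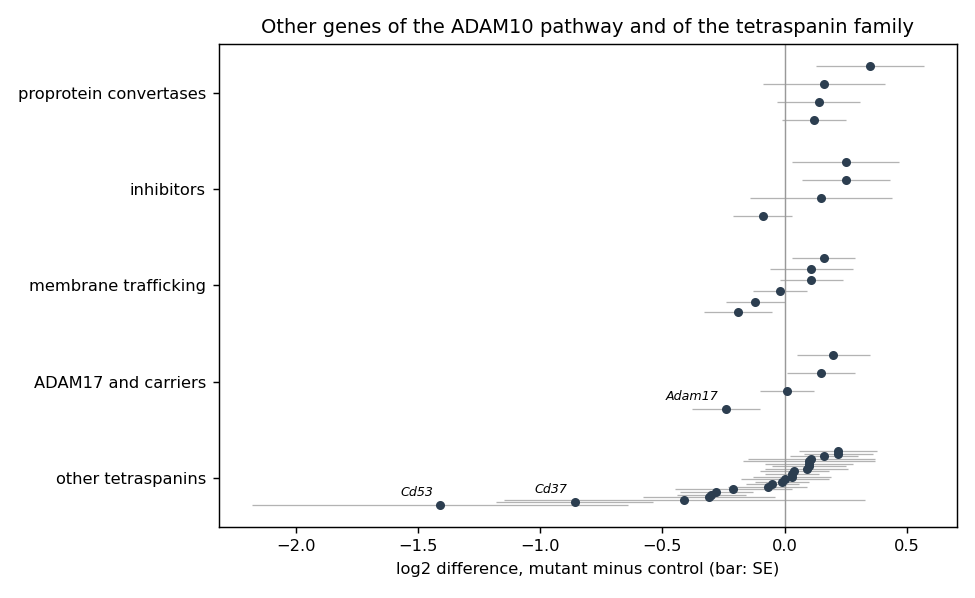
Log2 difference, mutant minus control (x axis; bar, SE), of each tested gene in 5 lists of genes that act on ADAM10 or belong to its relatives (rows). The lists centre near 0, with medians from 0.02 to 0.20. The lowest values are Cd53 at -1.41, with mutant 2 too dim to be measured, and Cd37 at -0.86.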

How the data were processed

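Per the file headers and the submitters' processing notes, spots were quantified by Agilent Feature Extraction 10.7.1.1, and the array design cites the build mm9. Per the labels, labelled cRNA was made from 100 ng of RNA. Each deposited scanner file gives spot intensity on a linear scale without normalization between arrays. A value table that the authors deposited holds, as inferred from its values, the ratio of each feature to its array's 75th percentile, and served as an alternative.

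Accessions were matched to RefSeq symbols of another build (GRCm38.p6), so no coordinates are given, and the files hold no probe sequences. Control spots and outlier spots were dropped. Processed signals were divided by the 75th percentile of their array, log2 values were taken, and spots of a probe were averaged. Probes well above background on at least 3 arrays were kept, and each gene was represented by its brightest probe. Tests were two-sided, from lmFit and eBayes of limma 3.58.1 under R 4.3.3, and p-values were adjusted by Benjamini-Hochberg over 25494 features, of which 15658 had a symbol. The fit had 4 residual degrees of freedom and 2.42 from the prior. A check on simulated data required only that added shifts be returned, which a linear fit does by construction. Differences are mutant minus control. Replicates are separate mice.

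The members and lists were chosen with earlier results of these data known. Named are all members, the genes of each pathway list at an unadjusted p below 0.05 plus the 2 with the smallest p, and the 3 genes most like Adam10 and any tetraspanin member with an SD above 0.3. Marker genes named singly with values, apart from Col2a1, were chosen after their values were seen, as were the tetraspanins marked so. Normexp correction (offset 50) used median spot signals, since no mean signal column is in the files. Other alternatives concerned the dim-probe filter, the replicate number as a block, array weights, variance trend, sex read from Xist and Ddx3y, marker scores as covariates, single arrays left out and probe-level fits.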

Additional observations from a re-analysis of the deposited data

How the results depend on the processing

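The Adam10 difference stayed below 0 under all 19 alternatives, from -2.24 to -0.52, and its adjusted p ran from 0.207 to 1. Its unadjusted p was below 0.05 under 16 of them and not with the marrow (-1.68, 0.0536), macrophage or osteoclast score as a covariate. It was -1.16 without both control 1 and mutant 2, the ends of the first principal component. Replicate numbers are shared by the groups, but same-numbered mice did not deviate together (r = 0.21, 0.06 and -0.16), and the replicate block left it at -1.88 (SE 0.50).

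Among TspanC8 genes 0 to 1 had an unadjusted p below 0.05. The 1 was Tspan14 with array weights and Tspan33 without control 3. Tspan17 lay near 0 and changed sign with normexp and quantile scaling (-0.04), array weights (-0.04), the marrow score (-0.15), the deposited value table (0.00), without both control 1 and mutant 2 (-0.02), and with single arrays left out (from -0.15 to 0.13). Tspan15 changed sign with the marrow (0.04), macrophage (0.90) and osteoclast (0.59) scores, without both arrays (0.43) and without mutant 2, with a range of -1.00 to 0.11 over single arrays left out. Tspan5 turned to 0.09 with the macrophage and 0.05 with the osteoclast score, and Tspan33 to 0.44 with the marrow score. The cause was not tested.

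Array weights called 4 features (1 higher, 3 lower) and the other fits 0. Features at an unadjusted p below 0.05 numbered 877, against 3985 with array weights, 1362 without the dim-probe filter, 1906 without both arrays and 506 without control 2. Dim probes, Tspan10 and the second Tspan5 probe, limit what can be measured.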
